A study of Mus musculus with 36 samples.

Results

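The genes described here were 34 genes of fatty acid uptake, mitochondrial fatty acid oxidation, ketone body metabolism and their regulation, taken by symbol from the 53379 genes of the deposited count tables. All 34 were found. The rule that names them uses symbols and no measured value, but it was set with earlier results of these data known. They were followed through kidneys and tumors of mice carrying an ASPSCR1-TFE3 fusion allele. The name ketogenesis covered the genes only in part: the 3 ketone body genes among them, Oxct1, Bdh1 and Acat1, take part in using or interconverting ketone bodies and acetoacetyl-CoA. A further 74 genes of the pathway were examined beside the members.

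Fatty acids enter cells with the help of transporters such as CD36 and are joined to coenzyme A by acyl-CoA synthetases. The carnitine shuttle then carries long chains into the mitochondrion, where acyl-CoA dehydrogenases, a hydratase, a hydroxyacyl-CoA dehydrogenase and a thiolase shorten them step by step, and electron transfer flavoprotein passes the electrons to the respiratory chain. The proximal tubule of the kidney relies on this pathway for most of its energy, and PPARα and PGC-1α are known to control its genes.

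The series held 36 RNA-seq libraries from formalin-fixed, paraffin-embedded mouse tissue. In the adult model, 6 mice carried Sglt2-Cre and the ASPSCR1-TFE3 LSL/+ allele, in which a stop cassette flanked by loxP sites precedes the fusion. They gave 11 kidney tumors from all 6 mice, 4 retro-orbital tumors (mice 2, 3, 5 and 6), 3 brain tumors (mice 1, 2 and 4) and 4 non-transformed kidney samples (mice 1, 3, 4 and 5). The control kidneys were 6 samples from 3 mice with Sglt2-Cre and no fusion allele. In the fetal model, 5 dysmorphic kidneys came from fetuses with Pax8-Cre and ASPSCR1-TFE3 LSL/+, and the 3 control fetal kidneys were labelled Pax8-Cre, although the series description names the fusion allele without Cre as another genotype of these age-matched controls. The Sglt2 promoter drives Cre in the proximal tubule and the Pax8 promoter in the developing nephron and collecting duct. The non-transformed kidney carried the same alleles as the tumors, and ages were not given in the labels. Cre driven by these promoters acts only in the cells that use them, and each sample was a whole piece of tissue. Each library held 80205573 to 121415057 counts. Libraries of the same animal and tissue were summed, leaving 28 samples from 17 animals. The kidney tumor level of a mouse thus stands for all of its kidney tumors, and statements on overlap compare animals unless single tumors are named. Overlap was not examined over all genes, so no share is given beside it. Levels are CPM, counts scaled to a common library size, after one normalisation over all 28.

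4 stretches of promoter are shown: those of Cpt1c and Cpt1a, whose levels are followed below, that of Acsm5 for its E-box, and that of Hadhb because its window meets that of Hadha. Each is 300 bases in RefSeq on GRCm38.p6, from 250 bases before the RefSeq start to 50 after, printed 5′ to 3′ on the gene's strand. Capitals mark AGGTCA on either strand, the short element of nuclear receptors such as PPARα, or a CACGTG E-box, the element of the family of factors to which TFE3 belongs, and the Hadhb window holds neither. The RefSeq starts used for Acsm5 and Cpt1a lie inside the GENCODE M21 gene models, which begin at base 119519463 of chromosome 7 and base 3322334 of chromosome 19. Cpt1c and Cpt1a encode related carnitine palmitoyltransferases, Acsm5 a medium-chain acyl-CoA synthetase and Hadhb the β subunit of the trifunctional protein.
Cpt1c, chr7:44974802-44975101, minus strand: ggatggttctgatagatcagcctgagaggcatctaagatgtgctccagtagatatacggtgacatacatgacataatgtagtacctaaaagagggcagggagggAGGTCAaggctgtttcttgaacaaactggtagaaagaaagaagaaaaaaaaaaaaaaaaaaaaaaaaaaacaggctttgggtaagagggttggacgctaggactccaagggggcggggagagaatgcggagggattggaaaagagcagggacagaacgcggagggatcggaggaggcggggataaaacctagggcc
Cpt1a, chr19:3323051-3323350, plus strand: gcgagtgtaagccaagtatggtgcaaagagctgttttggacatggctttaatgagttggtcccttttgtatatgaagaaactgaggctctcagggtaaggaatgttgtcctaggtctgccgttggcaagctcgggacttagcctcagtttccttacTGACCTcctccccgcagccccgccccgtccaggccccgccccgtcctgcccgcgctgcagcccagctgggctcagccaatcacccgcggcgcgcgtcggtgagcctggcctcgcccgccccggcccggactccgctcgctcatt
Acsm5, chr7:119526015-119526314, plus strand: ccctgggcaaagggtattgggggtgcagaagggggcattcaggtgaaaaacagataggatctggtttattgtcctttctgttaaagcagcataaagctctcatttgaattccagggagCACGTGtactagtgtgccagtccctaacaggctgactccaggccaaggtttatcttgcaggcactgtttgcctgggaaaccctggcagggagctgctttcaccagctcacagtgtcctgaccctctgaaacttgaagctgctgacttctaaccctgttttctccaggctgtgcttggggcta
Hadhb, chr5:30155003-30155302, plus strand: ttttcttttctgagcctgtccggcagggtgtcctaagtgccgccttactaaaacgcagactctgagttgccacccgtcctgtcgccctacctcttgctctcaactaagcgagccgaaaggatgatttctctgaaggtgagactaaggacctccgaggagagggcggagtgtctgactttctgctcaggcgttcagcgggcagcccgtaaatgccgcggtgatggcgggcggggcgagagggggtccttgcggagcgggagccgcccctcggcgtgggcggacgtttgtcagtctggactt

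The window of Hadha, which encodes the α subunit of the same protein, lies on the opposite strand at chr5:30154931-30155230 and shares 228 bases with that of Hadhb. In all, 30 of the 34 members had an entry, with 33 promoters, and Acat1, Acaa2, Cpt1b and Decr1 had none. Both strands were searched. CACGTG was found in the Acsm5 promoter alone, against 2349 of all 32851 promoters of this length (7.15%). AGGTCA was found in 7 members (Acadm, Acadvl, Acsm1, Cd36, Cpt1a, Cpt1c and Echs1), against 5340 promoters (16.3%), a search for the single element that was added after the data had been seen. The longer forms TCACGTGA, which contains CACGTG, and AGGTCANAGGTCA, a direct repeat of AGGTCA, were in no member and in 0.974% and 0.0396% of all promoters. These are matches of letters within the window and not binding sites.

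In the control kidney the members covered a wide range of levels. Per kilobase of exon, Oxct1, which encodes the enzyme that activates acetoacetate for use as fuel, was highest with a mean of 425 CPM per kb, followed by Etfa (299 CPM per kb), the α subunit of electron transfer flavoprotein, and Acadm (218.09 CPM per kb), medium-chain acyl-CoA dehydrogenase. Cpt1c at 0.267 CPM per kb and Cpt1b, the muscle isoform, at 0.0577 CPM per kb were the lowest of the 34. Oxct1 also led the non-transformed kidney, kidney tumor, retro-orbital tumor and brain tumor groups, whereas Etfa led both fetal groups (122 and 104 CPM per kb). Acadm had mean levels of 84.3 CPM per kb in kidney tumors, 24.7 in retro-orbital tumors and 25.7 in brain tumors. Cpt1b stayed between 0 and 0.443 CPM in all 28 samples and gave no usable level. It overlaps Gm44502 on the same strand, and how such reads were counted was not given in the sources used here.

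**Figure D1:**
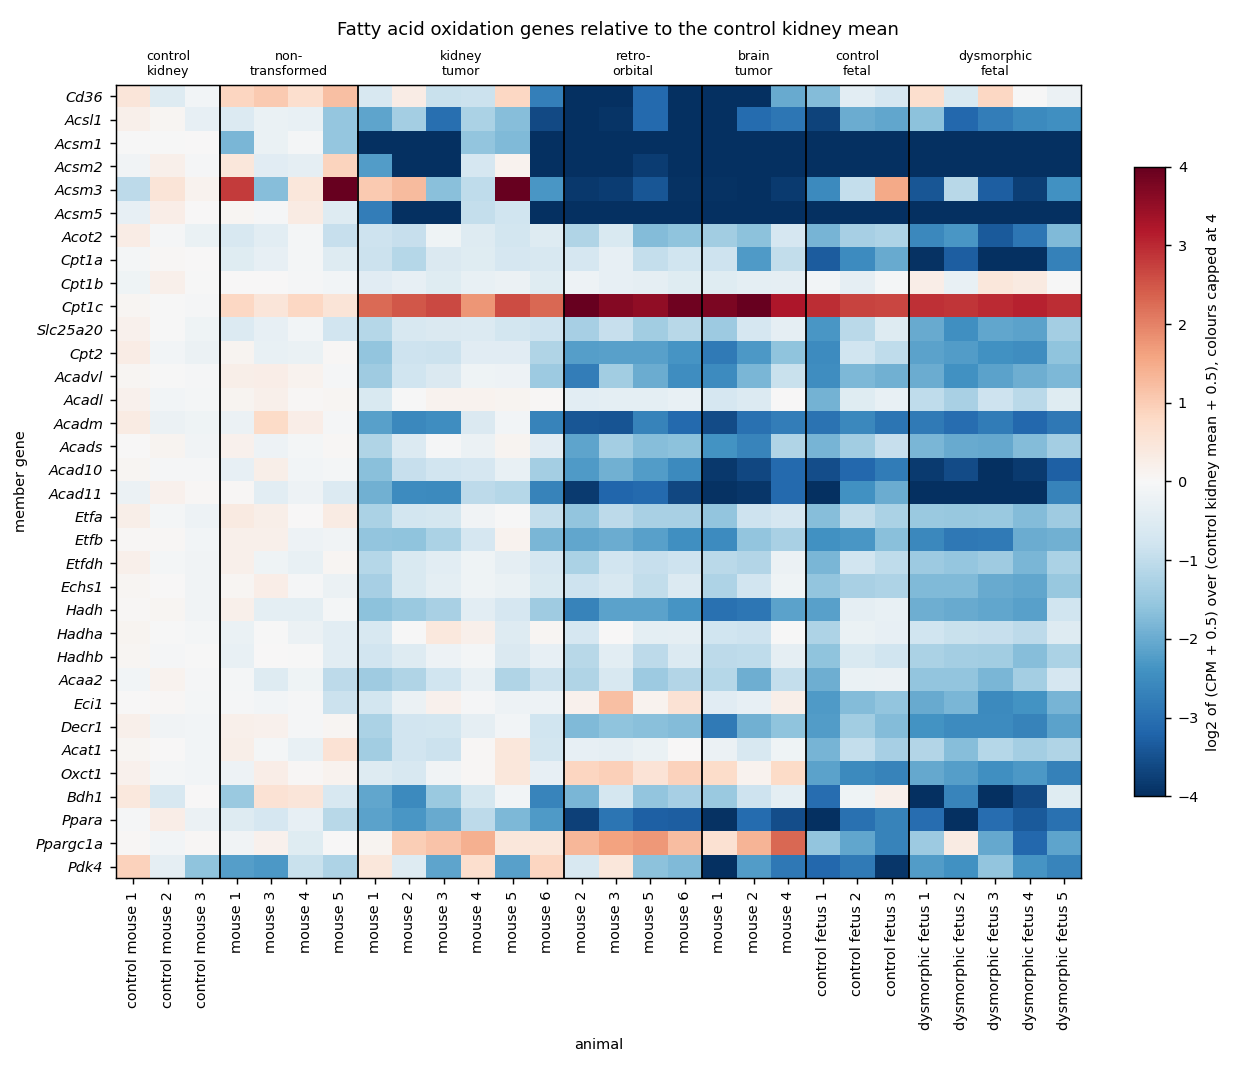
Each row is a member gene and each column an animal, grouped by tissue, and the colour is the log2 ratio of CPM plus 0.5 to the control kidney mean plus 0.5, capped at 4 in each direction. Cpt1c is the one row that is red in every tumor and fetal sample, and most other rows turn blue from the kidney tumors to the retro-orbital and brain tumors.

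Tubule marker levels differed between samples. The summed level of 12 proximal tubule markers was 14172 to 14659 CPM in control kidneys and 13206 to 16442 CPM in non-transformed kidneys. In the kidney tumors it was 2895 CPM in mouse 1, 729 in mouse 2, 738 in mouse 3, 9106 in mouse 4, 10760.4 in mouse 5 and 663 in mouse 6. The kidney tumors of mice 4 and 5 stood apart. The 8 distal nephron and collecting duct markers were also high there, with 3971 and 5954 CPM in mice 4 and 5 against 21.4 to 952 in the others. Comparisons with kidney tumors are therefore given also without the kidney tumors of these 2 mice, 3 of the 11, an alternative added after the data had been seen. No marker of either list was at 0 throughout a group. In bulk samples, fewer cells of a type and less RNA per cell cannot be told apart.

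The first comparison asked how kidney tumors differed from control kidneys. Most members were lower in the tumors: 29 of 34 had a negative log2 fold change and 5 a positive one, with a median of -0.64 against 0.05 over the 23578 genes tested. 1 member was called higher and 9 lower by edgeR at an adjusted p under 0.05, where 12.5% of all genes were called higher and 6.51% lower. The single rise was Cpt1c, and the largest falls among those called were in Acsl1, Ppara and Acad11. Without mice 4 and 5, 22 members were called, 2 higher and 20 lower, while the calls over all genes went from 4474 to 7845.

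The carnitine shuttle held 4 of the calls. Cpt1c encodes a relative of carnitine palmitoyltransferase that is best known from neurons and the endoplasmic reticulum and has little of the transferase activity of its family. The gene (ENSMUSG00000007783.10, chr7:44959372-44974851 in GRCm38) was at 1.60, 1.46 and 1.44 CPM in the 3 control kidneys and between 6.28 and 12.0 CPM with a median of 9.96 in the kidney tumors (log2 fold change 2.73, SE 0.26, edgeR adjusted p = 0.000292). All 6 mice lay above all 3 controls, the lowest being mouse 4, and so did each of the 11 single tumors. Cpt1c overlaps 6530437J22Rik on the opposite strand, and the strand setting of the counting was not given in the sources used here, so reads of the 2 genes cannot be told apart. Cpt1a, the liver-type enzyme that is the main control point of mitochondrial entry, was at 448, 489 and 478 CPM in controls and between 215 and 336 CPM with a median of 300.2 in tumors (log2 fold change -0.69, SE 0.15, edgeR adjusted p = 0.014). Slc25a20, the carnitine-acylcarnitine carrier, fell from 90.6, 79.7 and 71.5 CPM to 36.7 to 55.6 CPM (log2 fold change -0.71, SE 0.15, edgeR adjusted p = 0.0123). Cpt2, the inner membrane enzyme that returns the chain to coenzyme A, fell from 177, 132 and 122 CPM to 48.2 to 105 CPM (log2 fold change -0.84, SE 0.24, edgeR adjusted p = 0.0383). For all 3 genes that fell, the highest mouse was below the lowest control, although 1 single tumor of mouse 4 reached 122.6 CPM of Cpt2. Cpt2 was not called with sex as a covariate (edgeR adjusted p = 0.0596) and was called under 9 of 17 alternatives.

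Of the uptake and activation genes, Acsl1 alone was called. This long-chain acyl-CoA synthetase was at 786, 728 and 548 CPM in controls and between 56.2 and 288 CPM with a median of 185 in tumors (log2 fold change -1.94, SE 0.45, edgeR adjusted p = 0.0192), with no overlap, and it too overlaps a gene on the opposite strand. The medium-chain synthetases of the Acsm family varied most among tumors. Acsm1 was at 301, 298 and 305 CPM in controls, at 101 and 88.2 CPM in the tumors of mice 4 and 5, at 17.0 CPM in mouse 1 and at 1.61 to 4.18 CPM in mice 2, 3 and 6. Acsm2 was at 699, 889 and 748 CPM in controls and at 856 CPM in the tumor of mouse 5, 492 in mouse 4, 164 in mouse 1 and 1.98 to 5.50 CPM in the other 3. Both genes were high in the tumors with high tubule markers and low in the rest, and neither was called (log2 fold change -3.07, SE 1.16, edgeR adjusted p = 0.0911 for Acsm1, and log2 fold change -1.62, SE 1.51, edgeR adjusted p = 0.465 for Acsm2). Acsm5 was at 0.248 to 37.2 CPM in tumors against 51.4 to 78.2 CPM in controls and was not called (edgeR adjusted p = 0.21). Without mice 4 and 5, Acsm1 and Acsm5 were called lower, at -5.50 and -4.26. The Acsm genes are neighbours and near relatives on chromosome 7, so how reads were shared among them is uncertain.

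Acsm3 behaved unlike its relatives. It was at 5.26, 16.6 and 12.7 CPM in controls, but mouse 5 had 706 CPM in its kidney tumor and 543 CPM in its non-transformed kidney, and the non-transformed sample of mouse 1 had 83.0 CPM. Its other kidney tumors were at 1.92 to 28.4 CPM. Mice 1 and 5 were the only males of the 6 by 4 Y-linked genes, and all 3 control mice were female. In female mice only, the log2 fold change of Acsm3 between kidney tumors and control kidneys was -0.19 (edgeR adjusted p = 0.886), against 3.45 over both sexes (edgeR adjusted p = 0.244). Cd36 (-0.29, edgeR adjusted p = 0.754) and the thioesterase Acot2 (-0.58, edgeR adjusted p = 0.0662) were not called, and Acot2 shares close sequence with Acot1.

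Among the acyl-CoA dehydrogenases, each of which opens the cycle for a range of chain lengths, Acad11 and Acad10 were called lower. Acad11 fell from 294, 385 and 356 CPM in controls to between 54.0 and 168 CPM with a median of 75.7 in tumors (log2 fold change -1.80, SE 0.38, edgeR adjusted p = 0.0136). Acad10 fell from 70.9, 64.1 and 64.7 CPM to 20.4 to 54.7 CPM (log2 fold change -0.87, SE 0.26, edgeR adjusted p = 0.0437). Tumor-bearing mice and controls did not overlap for either gene. All controls were female, and Acad10 was not called with sex as a covariate (edgeR adjusted p = 0.0568) and was called under 9 of 17 alternatives. Acad11 overlaps another gene on each strand. Acadm, deficient in the commonest inherited disorder of this pathway, was at 1072, 729 and 759 CPM in controls and at 188, 141, 151, 576, 790.2 and 132 CPM in the tumors of mice 1 to 6 in order. Its 4 tumors with few tubule markers lay at 132 to 188 CPM, while that of mouse 4 was below and that of mouse 5 within the control range, and it was not called over all 6 (log2 fold change -1.37, SE 0.59, edgeR adjusted p = 0.128). Without mice 4 and 5 it was called, at -2.43 (edgeR adjusted p = 0.000271). Acadl, the long-chain enzyme, was at 334, 278 and 283 CPM in controls and 195, 293, 332, 330.4, 323 and 310.1 CPM in tumors, and only mouse 1 was below the controls (log2 fold change 0.01, SE 0.17, edgeR adjusted p = 0.969). Acadvl, the very-long-chain enzyme (-0.67), and Acads, the short-chain enzyme (-0.33), were not called.

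Of the 5 genes for the later steps of the cycle, Hadh and Acaa2 were called lower. Hadh, short- and medium-chain hydroxyacyl-CoA dehydrogenase, fell from 131, 132 and 115 CPM to between 39.8 and 93.5 CPM with a median of 49.3 (log2 fold change -1.08, SE 0.26, edgeR adjusted p = 0.0231). Acaa2, the medium-chain thiolase, fell from 156, 186 and 162 CPM to 63.1 to 136 CPM (log2 fold change -0.90, SE 0.23, edgeR adjusted p = 0.0251). The highest tumor of both was mouse 4. The trifunctional protein, which acts on long chains, was closer to control: Hadha had a log2 fold change of -0.02 with an SE of 0.23, and Hadhb one of -0.37 with an SE of 0.16 (edgeR adjusted p = 0.968 and 0.129). Echs1, the short-chain hydratase (-0.50), and the electron transfer genes Etfa (-0.56), Etfb (-0.98) and Etfdh (-0.51) were not called. Neither were Eci1 (-0.17) and Decr1 (-0.61), which handle the double bonds of unsaturated chains.

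The ketone body genes gave no call. Oxct1 was at 1762, 1505 and 1455 CPM in controls and between 1004 and 2155 CPM with a median of 1338 in tumors (log2 fold change -0.12, SE 0.23, edgeR adjusted p = 0.723). Bdh1, which interconverts the 2 main ketone bodies, was at 119.8, 57.0 and 89.9 CPM in controls and 20.8, 15.0, 31.7, 54.6, 82.4 and 13.8 CPM in tumors (log2 fold change -1.28, SE 0.55, edgeR adjusted p = 0.124). Acat1, mitochondrial acetoacetyl-CoA thiolase, was at 179.9 to 653 CPM against 437 to 506 CPM (log2 fold change -0.40, SE 0.35, edgeR adjusted p = 0.437). Tumors and controls overlapped for all 3. Without mice 4 and 5, Bdh1 (-2.08) and Acat1 (-0.87) were called lower and Oxct1 was not (-0.35).

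Among the regulators, Ppara (ENSMUSG00000022383.13, chr15:85734983-85802819 in GRCm38), which encodes the fatty acid receptor PPARα, was at 77.7, 97.1 and 68.4 CPM in controls and between 15.9 and 38.8 CPM with a median of 18.7 in tumors (log2 fold change -1.87, SE 0.28, edgeR adjusted p = 0.00302). Every tumor was below every control, and mouse 4 was again the highest. Ppargc1a, which encodes the coactivator PGC-1α, was at 342, 309 and 347 CPM in controls and between 359 and 892 CPM with a median of 558 in tumors. The sums of all 6 mice were above the controls, but single tumors of mice 1, 2 and 6, at 279.9, 154 and 246 CPM, were below them, and the difference was not called (log2 fold change 0.85, SE 0.28, edgeR adjusted p = 0.0612). Summed skeletal muscle markers were 62.3 CPM in the tumor of mouse 2 with 154 CPM of Ppargc1a and 1580.4 CPM in its other tumor, with 1091 CPM. In mice 1, 3 and 4 the tumor with more of these markers had less Ppargc1a. In mouse 4 the markers were at 2223 and 440 CPM and Ppargc1a at 841 and 934 CPM. In mouse 6 the markers were at 40.7 and 38.1 CPM and Ppargc1a at 649 and 246 CPM. The part of muscle in the Ppargc1a level was not tested. Pdk4, the kinase that holds back pyruvate oxidation, was at 42.5 to 250.04 CPM in controls and 29.1 to 238 CPM in tumors, with full overlap (log2 fold change 0.01, SE 0.77, edgeR adjusted p = 0.997). Cpt1c and Ppara were called under all 17 alternatives, whereas without control mouse 1, 2 or 3 the number of members called was 4, 2 and 3.

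**Figure D2:**
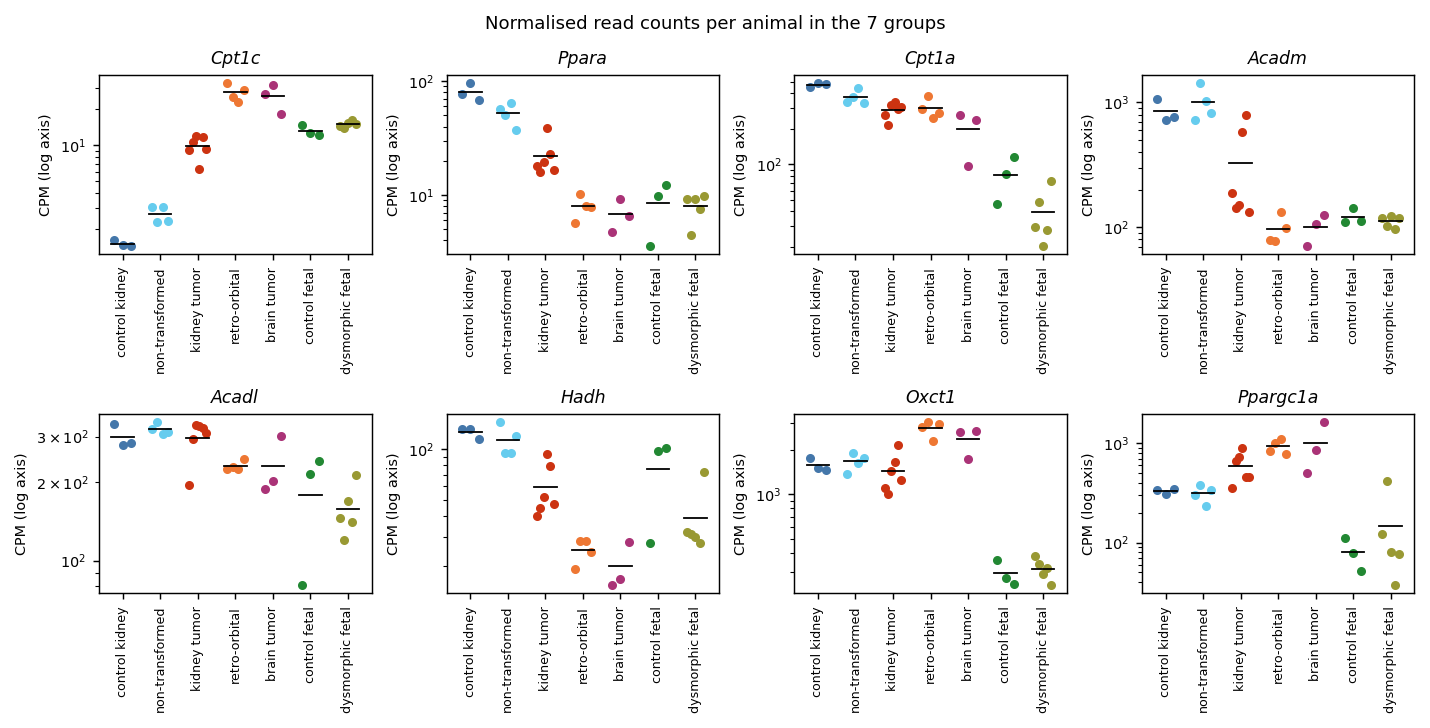
Each point is the level of 1 animal in CPM on a log axis, grouped by tissue, and each line the group mean. Cpt1c is higher and Ppara lower in every kidney tumor than in every control kidney and again in every tumor outside the kidney than in every kidney tumor, and the means of Oxct1 and Ppargc1a are highest in the tumors outside the kidney.

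Other pathway genes gave 8 calls higher and 18 lower among 72 tested, with a median of -0.58. Without control mouse 2 the count was 5, and without the kidney tumors of mice 4 and 5 it was 49. Among those with the largest log2 fold change were Fabp5, a fatty acid binding protein (4.40), Pparg, the adipocyte receptor PPARγ (3.46), Acsl6 (3.13), Acaca, the acetyl-CoA carboxylase of fatty acid synthesis (2.64), and Crat, carnitine acetyltransferase (1.66), all higher. Macrophage markers summed to 226 to 667 CPM in kidney tumors and 147 to 174 CPM in controls, with no overlap, and fat cell markers to 121 and 565 CPM in the kidney tumors of mice 1 and 2 against 0.446 to 2.92 CPM in the other mice. Their part in these levels was not tested. Bdh2, a cytosolic hydroxybutyrate dehydrogenase, was not called (-1.95). All of the peroxisomal calls, 4 of 12 genes, were lower.

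**Figure D3:**
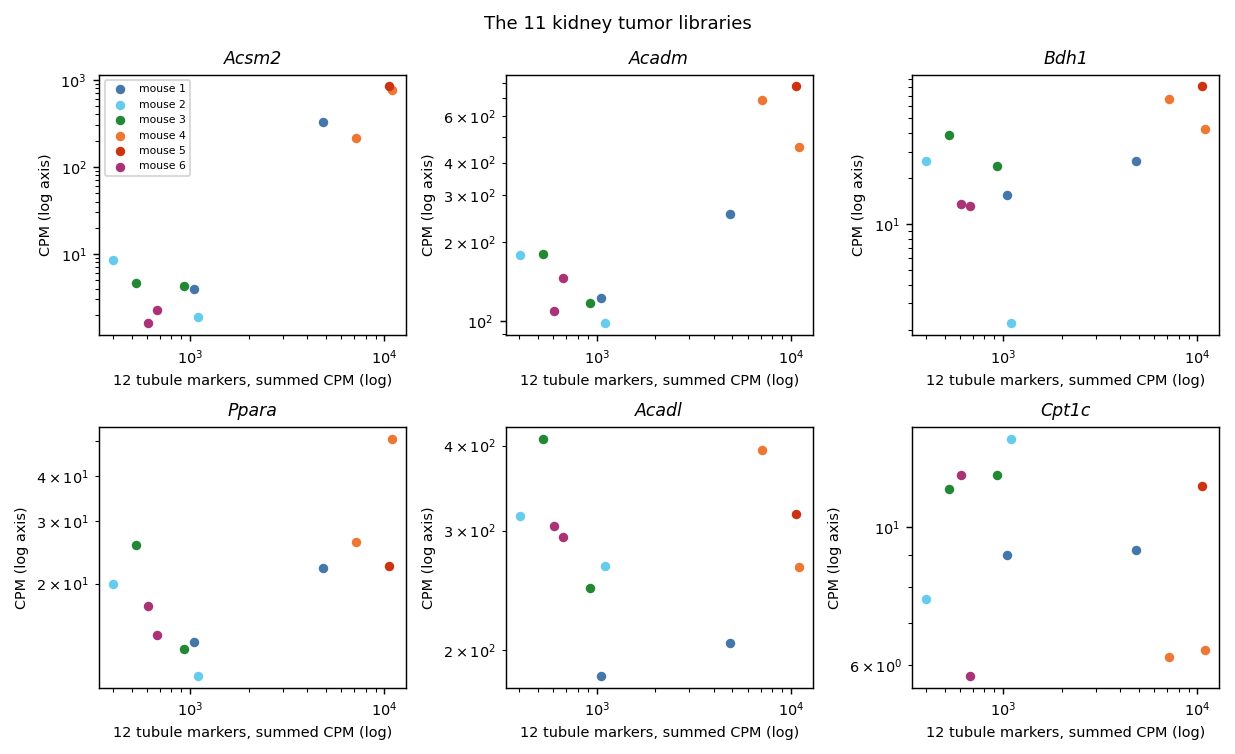
Each point is 1 of the 11 kidney tumor libraries, coloured by mouse, with the summed CPM of 12 proximal tubule markers on the x axis and the CPM of a member on the y axis, both log scaled. Acsm2 and Acadm are high in the libraries of mice 4 and 5 and in 1 library of mouse 1, and Acadl and Cpt1c show no such split.

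The 2 tumors of a mouse could differ widely. In mouse 1, one tumor had 4833 CPM of proximal tubule markers and the other 1048 CPM. Acsm2 was at 332 CPM in the first and 3.90 CPM in the second, and Acadm at 256 and 123 CPM. Cpt1c was at 9.18 and 8.998 CPM in the same libraries and Acadl at 205 and 184 CPM. Over the 5 mice with 2 kidney tumors, the median difference within a mouse was 1.81 on the log2 scale for Acsm2, 0.62 for Acadm, 0.83 for Ppara, 0.24 for Acadl and 0.08 for Cpt1c. Cpt1c was not steady in every mouse, with 13.9 and 7.66 CPM in the tumors of mouse 2 and 5.76 and 12.1 CPM in those of mouse 6.

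The non-transformed kidneys of the same mice served as a second reference. Against them, 2 members were called higher in kidney tumors and 8 lower, against a background of 12.1% higher and 5.02% lower among the 21930 genes tested. The median over the members was -0.68 and over all genes -0.02. Cpt1c was at 3.02, 2.28, 3.05 and 2.34 CPM in the non-transformed kidneys and again below every kidney tumor (log2 fold change 1.85, SE 0.22, edgeR adjusted p = 0.000684). Ppargc1a was the other gene called higher, with overlapping groups (log2 fold change 0.88, SE 0.26, edgeR adjusted p = 0.0444). Acad11 (-1.59), Ppara (-1.30), Hadh (-0.98), Acadvl (-0.87), Acad10 (-0.87), Etfa (-0.84), Cpt2 (-0.80) and Decr1 (-0.77) were lower. The comparison shares its kidney tumors with the one against control kidneys and is no independent test. Ppara and Acad10 overlapped between the groups here. The other 6 that fell did not overlap by mouse, which adds no separate test to their calls. Single tumors of mouse 4 reached the range of the non-transformed kidneys for Hadh and Cpt2. With the mouse as a block in a paired fit, 1 member, Cpt1c, was called, with 927 calls over all genes against 3755 without the block. Without mice 4 and 5 the count was 25 members and 7115 genes. Of the other pathway genes, 10 were called higher and 16 lower of 72 (1 in all with the mouse as a block), led by Fabp5 (3.03), Acsl6 (2.74), Pparg (2.64), Acaca (2.15), Crat (1.78) and Acacb (1.36), the carboxylase whose product, malonyl-CoA, inhibits CPT1. Bdh2 was not called (-1.58).

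Non-transformed and control kidneys were compared directly. No member was called by edgeR, where 0.00952% of 21019 genes were called higher and 0.00% lower. At an unadjusted p under 0.05 there were 7 members (count over all genes not given), and DESeq2, which called 493 of all genes, called 2 of them, Cd36 and Cpt1c, both higher. Cpt1c was at 2.28 to 3.05 CPM against 1.44 to 1.60 CPM, with no overlap (log2 fold change 0.87, SE 0.23, edgeR adjusted p = 0.232). Cd36 was at 329.5, 377, 285 and 412 CPM in the non-transformed kidneys against 249.98, 125 and 165 CPM (log2 fold change 0.998, SE 0.24, edgeR adjusted p = 0.213). Ppara was lower in all 4 non-transformed kidneys, at 57.1, 50.9, 64.7 and 37.3 CPM (log2 fold change -0.60, SE 0.19, edgeR adjusted p = 0.29). Cd36 is also a fat cell gene. Fat cell markers summed to 247 and 148 CPM in the non-transformed kidneys of mice 1 and 4, to 0.65 and 0.60 CPM in mice 3 and 5, and to 5.56 to 16.2 CPM in controls, and their part in the Cd36 level was not tested. None of the 72 other pathway genes tested was called by edgeR, 10 of them had an unadjusted p under 0.05, and Bdh2 had a log2 fold change of -0.37.

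Tumors outside the kidney were then compared with kidney tumors. In the retro-orbital tumors, most members were lower still: 27 of 33 tested had a negative log2 fold change, with a median of -0.75 against -0.09 over 22136 genes. 2 members were called higher, Cpt1c and Oxct1, and 13 lower, where 8.26% of all genes were called higher and 9.45% lower. Cpt1b did not pass the filter on low counts. The proximal tubule markers summed to 129 to 227 CPM in mice 2, 3 and 6 and to 1241 CPM in mouse 5. Without the kidney tumors of mice 4 and 5, 12 members were called, 3 higher and 9 lower, with 3529 calls over all genes.

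Cpt1c reached 33.4, 25.1, 23.1 and 29.0 CPM in the retro-orbital tumors of mice 2, 3, 5 and 6, above every kidney tumor (log2 fold change 1.45, SE 0.19, edgeR adjusted p = 0.00175). Oxct1 was at 2851, 3070.2, 2278 and 2983 CPM, also above every kidney tumor (log2 fold change 0.94, SE 0.20, edgeR adjusted p = 0.012), but was not called with the mouse as a block (edgeR adjusted p = 0.0659), whereas Acat1 (0.16) and Bdh1 (-0.05) were not called. Oxct1 overlaps another gene on the opposite strand, and the strand setting of the counting was not given in the sources used here.

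Cd36 had the largest fall among the members that held under all 15 alternatives: it was at 9.67, 5.24, 20.4 and 8.23 CPM in the retro-orbital tumors (log2 fold change -3.76, SE 0.70, edgeR adjusted p = 0.00638), below the kidney tumor level of every mouse, although 1 single kidney tumor of mouse 6 was at 15.0 CPM. Fat cell markers summed to 0.200 to 2.38 CPM in the retro-orbital tumors, against up to 565 CPM in kidney tumors, and endothelial markers to 1014 to 1484 CPM against 407 to 810.3 CPM, and their part in the Cd36 level was not tested. Acsm3 was at 0.337, 0.373, 0.619 and 0.275 CPM, below every kidney tumor, and its fold change of -8.31 carried an SE of 2.18 (edgeR adjusted p = 0.0265), with the kidney tumor of mouse 5 at 706 CPM. In female mice only it was -4.88 (edgeR adjusted p = 0.0258). Acsm1, Acsm2 and Acsm5 were near 0 in 3 of the 4 retro-orbital tumors, and mouse 5 was the highest for each, with 18.6, 55.2 and 3.28 CPM. Of these, none was called. Acsl1 was called lower with overlapping groups (log2 fold change -1.93, SE 0.49, edgeR adjusted p = 0.0236).

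Among the enzymes of the cycle, Cpt2 was at 30.7, 31.8, 31.4 and 27.7 CPM in the retro-orbital tumors (log2 fold change -1.42, SE 0.21, edgeR adjusted p = 0.00276). Hadh was at 19.3, 28.2, 28.2 and 24.2 CPM (log2 fold change -1.28, SE 0.26, edgeR adjusted p = 0.01) and Acads, the short-chain dehydrogenase, at 7.21, 12.4, 9.62 and 10.0008 CPM (log2 fold change -1.41, SE 0.26, edgeR adjusted p = 0.00616). For all 3 genes the highest retro-orbital tumor was below the lowest mouse in kidney tumors, and for Cpt2 and Hadh also below each single kidney tumor. For Acads, 1 kidney tumor of mouse 1 was at 10.8 CPM. Acad10 (-1.41), Acad11 (-1.64), Etfb (-1.33) and Decr1 (-1.09) were likewise separate by mouse and called lower, but Acad10 and Etfb overlapped by single tumor, and Acadvl (-1.42) and Slc25a20 (-0.49) were called with overlap. The Etfb gene overlaps Gm45233 and Mir7051 on the same strand, and how such reads were counted was not given. Ppara was at 5.65, 10.3, 8.05 and 7.83 CPM (log2 fold change -1.49, SE 0.29, edgeR adjusted p = 0.00778), below every kidney tumor. Cpt1a, in contrast to Cpt2, was at 294, 379, 245 and 274 CPM and had a log2 fold change of 0.01 with an SE of 0.15. Cd36, Cpt1c, Cpt2, Acads, Acad10, Hadh, Decr1 and Ppara were called under all 15 alternatives, those without the kidney tumors of mice 4 and 5 included, while Etfb was called under 1. With the mouse as a block in a paired fit, Acsl1, Acsm3, Slc25a20 and Etfb, like Oxct1, were not called.

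**Figure D4:**
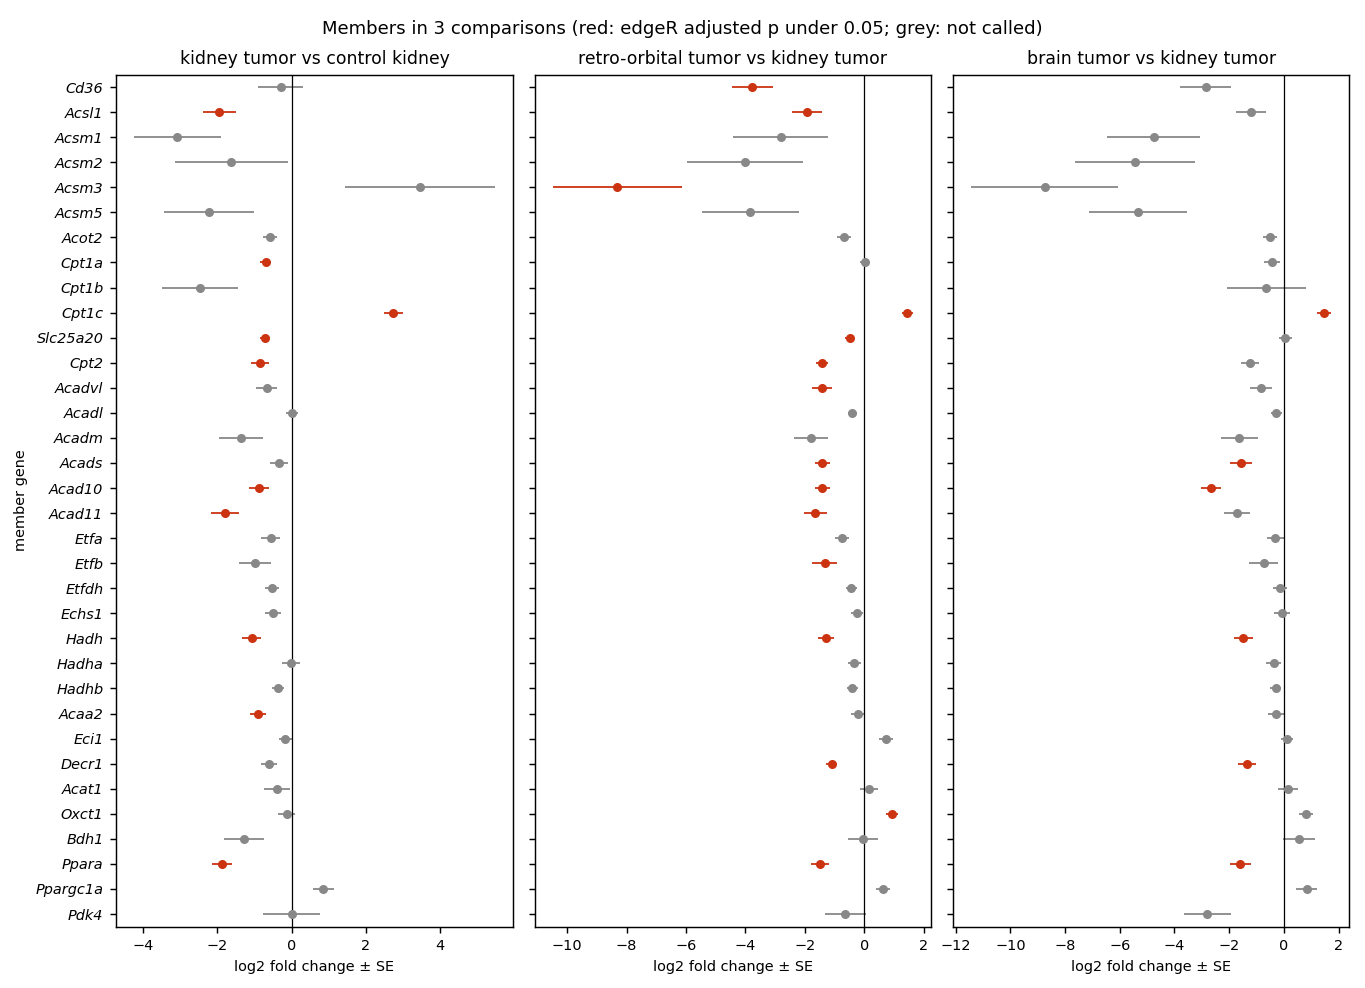
Each point is the log2 fold change of a member with its SE in 3 comparisons, with differing x ranges, and red marks an edgeR adjusted p under 0.05. Cpt1c is the one gene red and to the right in all 3 panels, at 2.73, 1.45 and 1.48, and Ppara, Acad10 and Hadh are red and to the left in all 3. The panels share the kidney tumors, so they are not independent of each other.

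Most members were also lower in the brain tumors than in the kidney tumors. 1 member was called higher, Cpt1c, and 5 lower, against a background of 4.54% higher and 4.20% lower among 23391 genes, and 27 of 34 members had a negative log2 fold change, with a median of -0.68 against 0.03 over all genes. Without the kidney tumors of mice 4 and 5, 4 members were called, 2 higher and 2 lower, with 1306 calls over all genes. Cpt1c was at 26.7, 32.0 and 18.4 CPM in the brain tumors of mice 1, 2 and 4 (log2 fold change 1.48, SE 0.26, edgeR adjusted p = 0.016). Acad10 was at 4.15, 4.87 and 7.19 CPM (log2 fold change -2.65, SE 0.37, edgeR adjusted p = 0.00805), Ppara at 4.72, 9.26 and 6.49 CPM (log2 fold change -1.59, SE 0.37, edgeR adjusted p = 0.0356) and Hadh at 15.4, 16.7 and 28.1 CPM (log2 fold change -1.48, SE 0.35, edgeR adjusted p = 0.0362). All 3 brain tumors were outside the range of the kidney tumors for these 4 genes. Decr1 (-1.34) and Acads (-1.56, with overlap) were the other members called. Oxct1 was at 2628, 1735 and 2667 CPM and not called (edgeR adjusted p = 0.0767). In a paired fit with the mouse as a block no member and no gene of the whole table was called. In that fit 17 members had an unadjusted p below 0.05 (count over all genes not given). DESeq2 called 14 members and 5104 genes, against 2044 genes by edgeR, and without mouse 2 edgeR called 0 members and 300 genes.

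Neuron markers summed to 834 CPM in the brain tumor of mouse 2 and to 99.1 and 119.66 CPM in the other 2, against 7.53 to 134 CPM in kidney tumors. Astrocyte and oligodendrocyte markers summed to 33.4 CPM in the brain tumor of mouse 1, 1225 in mouse 2 and 451 in mouse 4, against 28.9 to 100.08 CPM in kidney tumors, and proximal tubule markers to 292, 391 and 757 CPM. Brain tissue is known to express Cpt1c. The brain tumor of mouse 2 had 32.0 CPM of Cpt1c, the highest of the 3, and the log2 fold change of Cpt1c was not called without mouse 2 (1.30, edgeR adjusted p = 0.0775), without mouse 1 (1.40, edgeR adjusted p = 0.0715) or in female mice only (1.47, edgeR adjusted p = 0.107). In the retro-orbital tumors, whose Cpt1c levels were 23.1 to 33.4 CPM, the neuron markers summed to 42.9 to 127 CPM, and in control kidneys to 1.66 to 2.17 CPM. The part of brain tissue in the Cpt1c level was not tested.

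Brain and retro-orbital tumors gave no call for the 33 members tested, where 0.395% of 21037 genes were called higher and 1.34% lower in brain tumors. Acad10 and Pdk4 had an unadjusted p under 0.05, and DESeq2, which called 3080 of all genes, called both lower. Acad10 was at 4.15 to 7.19 CPM in brain tumors and 11.0 to 17.2 CPM in retro-orbital tumors, with no overlap (log2 fold change -1.33, SE 0.29, edgeR adjusted p = 0.0684). Cpt1c differed by -0.07 on the log2 scale with an SE of 0.26.

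Of the other pathway genes, 3 were called higher and 17 lower of 72 in retro-orbital against kidney tumors (8, 9 and 9 in all without mouse 2, 3 or 6), named by size as Acsl6 (2.27), Acot1 (-1.94), Acad12 (-1.76), the carnitine transporter Slc22a5 (-1.75), Scp2 (-1.73) and Crot (-1.47), the last pair of peroxisomes. In brain against kidney tumors, 2 were called higher and 10 lower of 73 (none with the mouse as a block, and 1 without mouse 2), led by Hnf4a, a tubule and liver transcription factor (-5.40), Acacb (-4.39), Fabp4 (-4.12), Acsl6 (3.63), Acad12 (-2.63) and Slc25a45 (-2.16). Between brain and retro-orbital tumors the single call was Fabp4, a fat and endothelial cell gene (-2.72). No other pathway gene was called there without mouse 2, 3 or 6 or with sex as a covariate, Fabp4 included, and 6 were called without mouse 1. Bdh2 was not called in retro-orbital (-3.69) or brain tumors (-4.48) against kidney tumors, or between the 2 sites (-0.85).

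In the fetal model, dysmorphic kidneys were compared with control fetal kidneys. The members were mostly lower in dysmorphic kidneys, but none was called by edgeR, where 2.40% of 22690 genes were called higher and 0.269% lower. The log2 fold change was negative for 28 of 34 members, with a median of -0.45 against -0.04 over all genes. At an unadjusted p under 0.05 there were 11 members (count over all genes not given). DESeq2 called 5 members and 2717 genes, against 605 genes by edgeR. The 5 were Acsm2, Acsm3, Acot2 and Decr1 lower and Pdk4 higher.

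The fetuses did not divide by genotype for several members. Bdh1 was at 10.3, 78.9 and 103 CPM in control fetuses 1 to 3 and at 5.16, 13.9, 4.12, 6.89 and 63.7 CPM in dysmorphic fetuses 1 to 5. Hadh was at 27.6, 97.5 and 102 CPM in controls and 31.9, 31.1, 29.8, 27.6 and 72.8 CPM in dysmorphic kidneys (log2 fold change -1.02, SE 0.47, edgeR adjusted p = 0.271), and Acad11 at 18.7, 64.2 and 86.7 and 16.1, 17.1, 13.4, 21.1 and 53.2 CPM. In these genes control fetus 1 was at about the level of dysmorphic fetuses 1 to 4 and well below the other controls, and dysmorphic fetus 5 was the highest of its group. Cpt1a showed a milder form of this, with 46.4, 83.0 and 116 CPM in controls and 29.8, 48.1, 20.4, 27.6 and 71.8 CPM in dysmorphic kidneys (log2 fold change -1.10, SE 0.44, edgeR adjusted p = 0.211). Dysmorphic fetus 5 also had the most proximal tubule markers of its group, 836 CPM against 45.5 to 149.9 CPM, but control fetus 1 had 1392 CPM, the highest of the fetal controls. The 5 liver markers summed to 29.6, 278 and 628 CPM in control fetuses 1 to 3 and to 10.1, 258, 239, 65.7 and 399.7 CPM in dysmorphic fetuses 1 to 5, and the neuron markers to 4.55, 13.1 and 34.6 CPM and 7.07, 14.1, 6.60, 6.48 and 132 CPM. In both lists control fetus 1 was the lowest control and dysmorphic fetus 5 the highest of its group, and the part of these cells in the members' levels was not tested. Without control fetus 1, 18 members had an unadjusted p under 0.05 (count over all genes not given), and no gene of the whole table was called.

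**Figure D5:**
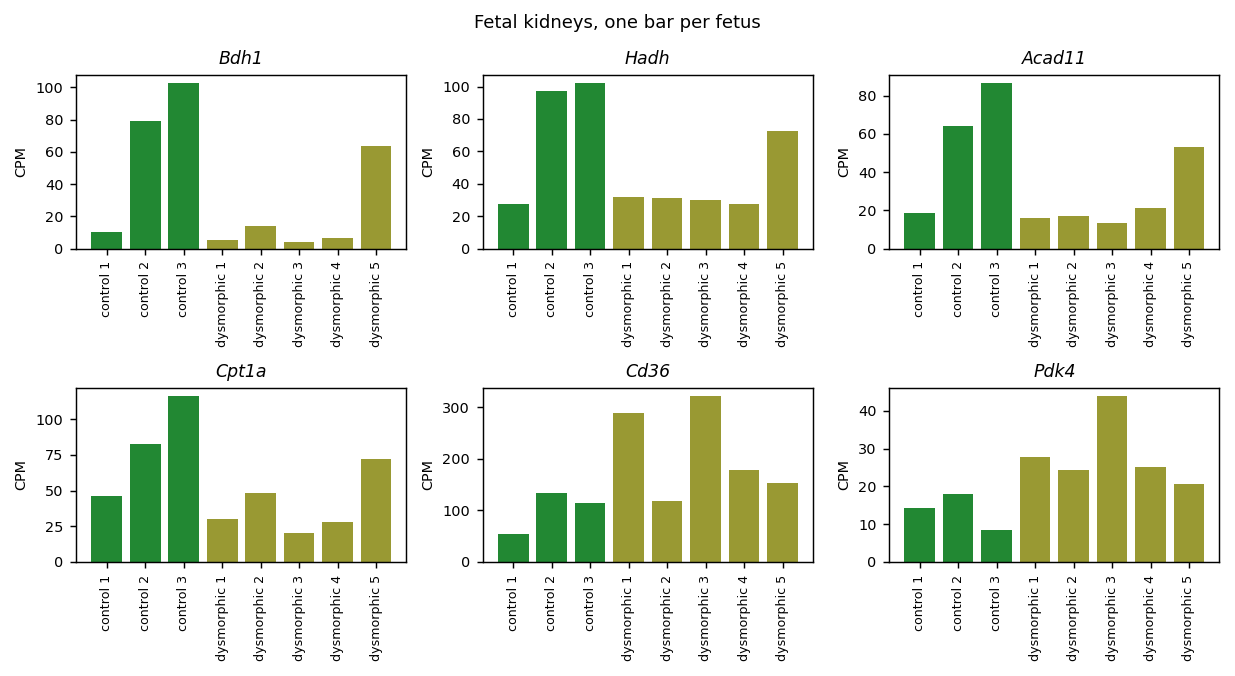
Each bar is the level of 1 fetus in CPM, the 3 control kidneys first and the 5 dysmorphic kidneys after them. For Bdh1, Hadh and Acad11 control fetus 1 stands with dysmorphic fetuses 1 to 4, and for Pdk4 all 5 dysmorphic kidneys are above the controls.

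Pdk4 was the member whose fetal groups did not overlap, with 14.4, 17.9 and 8.49 CPM in controls and 27.8, 24.3, 43.9, 25.1 and 20.6 CPM in dysmorphic kidneys (log2 fold change 1.01, SE 0.32, edgeR adjusted p = 0.131). Cd36 was at 54.2, 134 and 114 CPM and 288, 119, 321, 179 and 154 CPM, with overlap (log2 fold change 1.03, SE 0.41, edgeR adjusted p = 0.215). Decr1 was at 51.3, 91.7 and 73.1 CPM and 46.1, 42.3, 42.4, 37.6 and 55.1 CPM (log2 fold change -0.74, SE 0.20, edgeR adjusted p = 0.0896). Cpt1c was at 14.9, 12.6 and 12.3 CPM in control and 14.6, 13.9, 15.2, 16.3 and 15.0 CPM in dysmorphic fetal kidneys, levels that overlapped and differed by 0.13 on the log2 scale with an SE of 0.13. Ppara was at 3.57 to 12.2 CPM and 4.41 to 9.70 CPM. Skeletal muscle markers summed to 35128 to 92156 CPM in the dysmorphic kidneys and 13120 to 15797 CPM in controls, and their part in these levels was not tested. Macrophage markers also did not overlap, at 272 to 516 CPM in the dysmorphic and 141 to 174 CPM in the control kidneys, and their part was likewise not tested. Of the other pathway genes, 4 of 72 were called, all higher, and none without dysmorphic fetus 1, 3 or 4 or any single control fetus. By the Y-linked genes, 1 of 3 control and 3 of 5 dysmorphic fetuses were male, and with sex as a covariate none of the 4 was called, with 5 calls over all genes. Those named were Lpl, lipoprotein lipase (2.03), Fabp5 (1.43) and Crat (0.9997). Bdh2 was not called (-1.87).

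The 2 models were compared by testing the change of kidney tumors against control kidneys minus the change of dysmorphic against control fetal kidneys. Cpt1c was called higher in this difference (log2 fold change 2.63, SE 0.26, edgeR adjusted p = 1.23e-05) and Ppara lower (log2 fold change -1.71, SE 0.51, edgeR adjusted p = 0.0488), where 6.87% of 24444 genes were called higher and 2.07% lower. Cpt1c rose in the adult tumors from a mean of 1.498 ± 0.0912 CPM (SD, n = 3) to 9.85 ± 2.11 CPM (SD, n = 6), while the fetal means were 13.2 ± 1.42 CPM (SD, n = 3) and 15.0 ± 0.863 CPM (SD, n = 5). Every control fetal kidney had more Cpt1c and less Ppara than the summed kidney tumors of any mouse, though not than each single tumor, with Ppara at 8.53 ± 4.47 CPM (SD, n = 3). Cpt1c was called under all 24 alternatives and Ppara under 9. Without the kidney tumors of mice 4 and 5, 4 members were called, 1 higher and 3 lower, while the calls over all genes went from 2185 to 4253. Among the other pathway genes 5 were called higher and 5 lower of 73, led by Pparg (3.04), Fabp5 (3.02), Acaca (2.55), Klf15 (-1.90), Lpl (-1.76) and Ucp2 (1.61). Without control mouse 1, 2 or 3 these 10 calls fell to 2, both higher. They fell to 3 without dysmorphic fetus 3, control fetus 2 or control fetus 3, and rose to 20 without the kidney tumors of mice 4 and 5. Bdh2 was not called (-0.09). Cre driver, age and tissue differed together between the models and cannot be told apart.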

How the data were processed

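RNA was sequenced from formalin-fixed, paraffin-embedded mouse tissue with a stranded total RNA kit. The submitters' processing notes name FastQC, MultiQC, Bowtie2, STAR 2.5.2a and GRCm38/mm10. The counting tool, its strand setting and its annotation were not given in the sources used here. The deposited files hold raw counts per gene, in a table for each Cre model with a column per library, with 53379 genes, of which 53274 matched GENCODE M21 by identifier and 15012 had no count. Of counts between 1 and 20, 79.0 to 84.3% were even, so halved counts were tried as an alternative.

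Counts of libraries from the same animal and tissue were summed, with animals taken from the title prefix. Only the samples of a comparison entered its model, which used R 4.3.3 and edgeR 4.0.16 (TMM factors, filterByExpr, quasi-likelihood F-test, Benjamini-Hochberg adjustment over all genes tested, called under 0.05), and the steps were tested on simulated data. The SE was the log2 fold change over the square root of F. DESeq2 1.42.0, other factors, no filter, sex, female mice only, the mouse as a block and leaving out each animal were alternatives. The members and lists were chosen with earlier results of these data known. All 34 members are described; of the other pathway genes, up to 6 of those called whose mean log2 CPM reached 2 are named by size of change, with Bdh2 throughout, and some genes that the rule covers are not reported here. Counts of genes at an unadjusted p under 0.05 are given without the count over all genes and are not read as a result. Each library had 80205573 to 121415057 counts, and animals rather than depth limit the precision.

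Same-numbered mice are the same animal. The correlation of their deviations from the group means was -0.047 to 0.162 between kidney tumors and non-transformed kidneys, 0.253 to 0.323 between retro-orbital and kidney tumors, -0.077 to -0.058 between brain and kidney tumors and -0.102 in the 1 mouse with brain and retro-orbital tumors.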

Additional observations from a re-analysis of the deposited data

Results flagged for a closer look

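In groups of 4 to 6 samples, 136 levels of the members were examined for a sample far from all others, and 13 were found. The nominal rate of 1 in 20 would give 6.8. That rate assumes normal and independent levels, whereas these were unlogged CPM of members measured in the same samples, so the numbers cannot be compared directly. Mouse 5 accounted for 6 of them. Its retro-orbital tumor had 18.6 CPM of Acsm1 against 0.85 in the next highest, 55.2 CPM of Acsm2 against 3.79, and 3.28 CPM of Acsm5 against 0.317. The same tumor had 1241 CPM of proximal tubule markers, where the others had 129 to 227 CPM. Acsm3 stood at 706 CPM in the kidney tumor of mouse 5 against 28.4 in the next, and at 543 CPM in its non-transformed kidney against 83.0. Eci1 was low in that kidney, with 23.1 CPM against 38.7.

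Dysmorphic fetus 5 stood apart in 3 genes: Acad11 was at 53.2 CPM against 21.1 in the next, Hadh at 72.8 against 31.9 and Bdh1 at 63.7 against 13.9. Ppargc1a was at 421 CPM in dysmorphic fetus 2 against 122. In the tumors, Acadl was low in the kidney tumor of mouse 1 with 195 CPM against 293 and highest in the retro-orbital tumor of mouse 6 with 245 CPM against 228, and Ppara was highest in the kidney tumor of mouse 4 with 38.8 CPM against 22.8.

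The kidney tumor change and the fetal change differed by 2.63 on the log2 scale for Cpt1c and by -1.71 for Ppara. Both had an edgeR adjusted p under 0.05 for the difference itself. Ppara was called under 9 of 24 alternatives, and Cre driver, age and tissue differed together between the models.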

How the results depend on the processing

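Over all comparisons, 4285 values of single members were recomputed under the alternatives. Of these, 3774 kept their direction and side of the threshold, whatever the size of the shift. A further 215 changed sign without being called before or after, 100 passed the threshold newly and 196 no longer passed it. No called value changed sign. The cause was not tested where a count moved.

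The number of members called varied more. For kidney tumors against control kidneys it was 22 without the kidney tumors of mice 4 and 5, and 2 to 15 with each animal left out. Against non-transformed kidneys it was 25 without those tumors, 5 with sex as a covariate, 1 in female mice only, 1 with the mouse as a replicate block in a paired fit, and 1 to 11 with each animal left out. For non-transformed against control kidneys DESeq2 gave 2. For retro-orbital against kidney tumors the count was 8 to 16 with each animal left out, the lowest without mouse 2. For brain against kidney tumors it was 14 with DESeq2, 0 with the replicate block, 1 in female mice only and 0 to 4 with each animal left out. For brain against retro-orbital tumors it was 2 with DESeq2 and 0 to 1 with each animal left out. For the fetal kidneys it was 5 with DESeq2 and 0 to 1 with each animal left out. For the difference between the models it was 1 without a filter on low counts, 4 with DESeq2, 4 without the tumors of mice 4 and 5, and 1 to 2 with each animal left out.

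The block moved no other count by more than 1.5 times (12 members for retro-orbital against kidney tumors, and 0 for the fetal kidneys with the title prefix as the block). No paired analysis was possible between brain and retro-orbital tumors because only mouse 2 had both. Groups had 3 to 6 animals, which limits every test. Cpt1b, at 0 to 0.443 CPM, gave no usable level, and why was not tested.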

Other observations

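The other pathway genes are given here by group for kidney tumors against control kidneys, where 12.5% of all genes were called higher and 6.51% lower. No difference between the groups was tested, and the 26 calls fell to 11, 5 and 8 without control mouse 1, 2 or 3. Of 9 other mitochondrial dehydrogenases and isomerases, 6 fell and none rose by edgeR, among them Ivd, isovaleryl-CoA dehydrogenase of leucine breakdown (-1.12), and Ech1, an isomerase of unsaturated chains (-0.97). Of 12 peroxisomal genes, 4 fell and none rose, including Abcd3, a peroxisomal fatty acid transporter (log2 fold change -1.10, SE 0.24, edgeR adjusted p = 0.0143). The malonyl-CoA genes divided: Acaca, which makes malonyl-CoA, rose (log2 fold change 2.64, SE 0.54, edgeR adjusted p = 0.0121), and Mlycd, which breaks it down, fell (log2 fold change -0.90, SE 0.21, edgeR adjusted p = 0.0213). Plin2, the coat protein of lipid droplets, rose (log2 fold change 1.41, SE 0.40, edgeR adjusted p = 0.0371), and so did Ucp2 (1.01). None of the 5 other thioesterases was called by edgeR, with 2 at an unadjusted p under 0.05. Of these, the genes not already named by the size of their change were chosen after their values were seen.

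In retro-orbital against kidney tumors, Ucp3, an uncoupling protein best known from muscle (log2 fold change -3.98, SE 0.89, edgeR adjusted p = 0.014), and Angptl4, a lipoprotein lipase inhibitor (-1.27), fell, and Acsl3, a synthetase of lipid droplets and the endoplasmic reticulum, rose (0.85). Skeletal muscle markers summed to 40.7 to 1344 CPM in kidney tumors and 36.8 to 95.3 CPM in retro-orbital tumors, and their part in the Ucp3 level was not tested. The 20 calls of this comparison fell to 8, 9 and 9 without mouse 2, 3 or 6.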
